A study of Mus musculus with 46 samples.

Results

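The G1 cyclins, the kinases they activate and the inhibitors that hold those kinases back were followed in ribosome footprints and in poly(A) RNA of EPP2 cells, a murine pancreatic cancer line. The set comprised 10 genes, chosen by symbol, of 9857 symbols that stood on 1 entry each in the tables of both treatments: Ccnd1, Ccnd2, Ccnd3, Ccne1, Ccne2, Cdk4, Cdk6, Cdkn1a, Cdkn1b and Cdkn2b. All 10 were listed in every library. The study asked how tRNA wobble uridine modification, which depends on Ctu1, and mTORC1 act on codon-specific translation. Its 4 groups of samples were control cells with DMSO (n = 6), control cells with 300 nM torin 1 (n = 6), Ctu1KO cells with DMSO (n = 5) and Ctu1KO cells with torin 1 (n = 6), each treated for 2 h. Footprints and RNA were taken from each of the 23 samples. Both genotypes came from cells engineered for doxycycline-inducible Cas9 and derived from a single cell, so that all groups stood for 1 clone. Ctu1 was disrupted with guide RNAs and 300 ng/ml doxycycline for 4 days, whereas the labels gave the control cells as WT. In the study, control cells either carried guide RNAs against non-coding regions or Rosa26 or were left without doxycycline, and the labels did not say which applied here.

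Passage from G1 into S phase depends on D-type cyclins, which activate Cdk4 and Cdk6, and on E-type cyclins, which activate Cdk2. Cdkn2b (p15) binds Cdk4 and Cdk6 and blocks their pairing with D-type cyclins, while Cdkn1a (p21) and Cdkn1b (p27) bind cyclin-kinase complexes and inhibit mainly those of cyclin E. D-type cyclins are known as growth-factor-dependent, short-lived proteins, and mTOR, the kinase that torin 1 inhibits, couples growth signals to protein synthesis and to entry into the cycle.

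In the GENCODE M21 annotation of GRCm38, the D-type cyclin genes lay at chr7:144929931-144939925 (Ccnd1, minus strand), chr6:127125162-127152193 (Ccnd2, minus strand) and chr17:47505051-47599691 (Ccnd3, plus strand). Ccne1 was at chr7:38097984-38107534 (minus strand) and Ccne2 at chr4:11191351-11204779 (plus strand). The kinases were at chr10:127063534-127067920 (Cdk4, plus strand) and chr5:3341485-3531008 (Cdk6, plus strand). Cdkn1a was at chr17:29090976-29100727 (plus strand), Cdkn1b at chr6:134920401-134925513 (plus strand) and Cdkn2b at chr4:89306299-89311039 (minus strand). Each is annotated as protein coding.

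Promoter windows of 300 bases from RefSeq (GRCm38.p6) were matched for 7 of the 10 genes, in 9 windows. Ccnd1, Ccnd2 and Ccne2 had none. The windows of 4 genes are printed because their footprints span what was measured with torin 1: Ccne1 fell, Cdkn1b and Cdkn2b rose, and Cdk4 was not called. They run 5′ to 3′ on the strand of the gene, and capitals mark matches on either strand to 5 motifs. These are a loose E2F pattern (TTTNNCGC, N for any base), the E-box CACGTG, the cAMP response element TGACGTCA, the FoxO motif GTAAACA and the GC box GGGCGG.
Ccne1 promoter (chr7:38107441-38107740, minus strand): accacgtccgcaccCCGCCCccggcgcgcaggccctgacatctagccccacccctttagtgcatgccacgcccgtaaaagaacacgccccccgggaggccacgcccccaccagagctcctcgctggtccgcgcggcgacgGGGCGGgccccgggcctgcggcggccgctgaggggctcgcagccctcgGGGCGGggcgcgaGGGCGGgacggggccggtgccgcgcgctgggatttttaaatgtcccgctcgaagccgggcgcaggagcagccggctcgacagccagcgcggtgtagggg
Cdk4 promoter (chr10:127063285-127063584, plus strand): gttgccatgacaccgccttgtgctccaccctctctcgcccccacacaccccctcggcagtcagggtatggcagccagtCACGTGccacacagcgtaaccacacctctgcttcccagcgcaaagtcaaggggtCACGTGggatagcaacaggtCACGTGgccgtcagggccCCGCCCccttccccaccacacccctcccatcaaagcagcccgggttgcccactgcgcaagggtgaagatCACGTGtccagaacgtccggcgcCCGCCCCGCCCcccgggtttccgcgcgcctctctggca
Cdkn1b promoter (chr6:134920151-134920450, plus strand): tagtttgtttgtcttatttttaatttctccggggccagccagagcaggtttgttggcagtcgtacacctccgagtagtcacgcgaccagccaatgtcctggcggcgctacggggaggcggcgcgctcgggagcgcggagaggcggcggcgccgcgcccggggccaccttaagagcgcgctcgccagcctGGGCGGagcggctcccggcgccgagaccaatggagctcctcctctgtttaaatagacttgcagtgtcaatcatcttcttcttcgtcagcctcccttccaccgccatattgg
Cdkn2b promoter (chr4:89310983-89311282, minus strand): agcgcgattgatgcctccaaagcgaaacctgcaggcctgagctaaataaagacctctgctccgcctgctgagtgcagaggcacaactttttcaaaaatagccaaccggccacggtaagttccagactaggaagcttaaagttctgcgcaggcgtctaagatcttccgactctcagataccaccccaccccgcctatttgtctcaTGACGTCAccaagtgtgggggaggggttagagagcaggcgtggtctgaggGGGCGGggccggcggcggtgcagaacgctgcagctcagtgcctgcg

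The Cdk4 window held 4 E-boxes, where 7.15% of 32851 mouse windows held any and 8 windows held 4 or more. The Cdkn2b window held 1 cAMP response element, which 1.79% of all windows had. Ccne1 had 4 GC boxes and no other match, and Cdkn1b had 1 GC box, a motif found in 35.7% of windows. Of the windows not printed, that of Cdk6 held 1 E-box and 1 match to the loose E2F pattern (TTTTACGC). That loose pattern was present in 5.17% of windows. The upstream window of Ccnd3 held 1 FoxO motif (3.65%). None of the 9 windows began transcription, at the start that RefSeq gives, with a C followed by 4 further pyrimidines, which 2.51% of all windows did. These matches describe letters only.

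Footprint libraries held 4602092 to 52907878 counts, with medians of 26312873.5 in control cells with DMSO and 13038327 with torin 1. RNA libraries held 129881946 to 325494304. Member counts in single footprint libraries ran from 28 (Ccne1) to 25367 (Cdk4). The targeted gene, Ctu1, was listed only in the DMSO tables. Its footprints lay between 1.58 and 3.43 CPM (counts scaled to a common library total) in the 6 control libraries, from 42 to 143 counts, and were 1.48, 1.3, 2.28, 1.74 and 2.13 CPM in the 5 Ctu1KO libraries, so the groups overlapped. Its RNA was 4.65 ± 0.35 CPM (SD, n = 6) in control and 4.06 ± 0.82 CPM (SD, n = 5) in Ctu1KO cells. The lower Ctu1KO mean came from replicates 4 and 5 (3.28 and 3.1 CPM), whose RNA libraries lay opposite to their labels in the placement described next, and replicates 1 to 3 were 4.57, 4.37 and 4.96 CPM against 4.76, 4.54 and 4.57 CPM in control cells. These counts cannot show a small edit in the gene. The study reported editing of Ctu1 by PCR across the cut sites of its guides, and raised ribosome occupancy at AAA codons in Ctu1-deficient cells.

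Each library was placed along the torin 1 effect of replicates 1 and 2 of its own assay and genotype, on a scale where -1 is DMSO and 1 is torin 1. The 10 genes were left out, as was the replicate number of the library being placed. Footprint libraries labelled DMSO lay between -1.03 and -0.52 and those labelled Torin between -0.17 and 0.36, without overlap, although both torin 1 replicates 2 fell just below 0. The RNA libraries of replicates 1 to 3 lay between -1.34 and -0.85 for DMSO and between 0.24 and 1.13 for Torin. Among RNA replicates 4 to 6, 6 libraries lay on the side opposite to their label: those labelled Control Torin 5 and 6 (-0.85 and -0.8), Ctu1KO DMSO 4 and 5 (0.55 and 0.29) and Ctu1KO Torin 5 and 6 (-0.87 and -0.97). Transcripts were tested in replicates 1 to 3, the replicates fixed for this set. Some results with all replicates are given beside them. The study's methods give 2 independent replicates, fewer than the labels, and its legend for RNA sequencing gives the same number. Its legends for footprints give 5 or 6. The labels did not name separate cultures, and the p-values measure the spread between these samples, which may be technical. Of the epithelial duct markers fixed for this check, 4 of 10 were listed (Krt8, Krt18, Krt19 and Sox9), Epcam and Cdh1 were not, and none of the acinar, islet, leukocyte or endothelial markers was listed. Of 8 mesenchymal markers, 6 were listed, Vim at a median of 3050 CPM.

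In footprints, most cyclins fell and most inhibitors rose within 2 h of torin 1, while neither kinase was called. Counts were scaled within each library, so rises and falls here are relative to other genes and do not give absolute rates of synthesis. In control cells 7 of the 10 genes were called at an adjusted p under 0.05 (edgeR quasi-likelihood test, Benjamini-Hochberg over all genes), against 7.24% of the 9856 genes tested. Of these, 4 were lower (4.33% of all genes), namely Ccnd1, Ccnd3, Ccne1 and Ccne2, and 3 were higher (2.91%), namely Cdkn1a, Cdkn1b and Cdkn2b. In Ctu1KO cells 7 were called, against 8% of all genes: all 5 cyclins were lower (4.52% of all genes), and Cdkn1b and Cdkn2b were higher (3.48%). The median log2 change was -0.54 for the 5 cyclins and 0.78 for the 3 inhibitors in control cells, and -0.80 and 0.77 in Ctu1KO cells, beside 0.01 and 0.02 over all genes. Groups did not overlap for 5 of the genes in control cells and for 7 in Ctu1KO cells, where 5.44% and 8.16% of all genes were so separated. In bulk libraries a change in the share of cells in a phase of the cycle cannot be told apart from a change within each cell. The summed footprints of the 6 mesenchymal markers also moved with torin 1, from 3780 to 5020 CPM down to 2860 to 3630 CPM in control cells and from 3730 to 5410 CPM down to 2110 to 3370 CPM in Ctu1KO cells. Vim made up most of these sums. The summed duct markers lay between 331 and 403 CPM with DMSO and between 308 and 410 CPM with torin 1 in control cells, and between 365 and 501 CPM and between 395 and 499 CPM in Ctu1KO cells, so that they overlapped between treatments. Krt8 and Krt18 made up most of that sum, and Sox9 alone did not overlap: it was 37.2 to 60.7 CPM with DMSO and 73.2 to 108 CPM with torin 1 in control cells, and 51.1 to 95.3 CPM and 107 to 185 CPM in Ctu1KO cells. The median depth of the footprint libraries was lower with torin 1. The part of marker levels or depth in these results was not tested. With replicates 1 to 3 alone, edgeR called none of the 10 genes in control cells and only Ccnd3 in Ctu1KO cells, and calls over all genes fell from 714 to 138 and from 788 to 178. The log2 changes in control cells then were -0.91 for Ccne1, 1.05 for Cdkn1a, 0.85 for Cdkn1b and 0.86 for Cdkn2b, each larger in size than with all replicates, and -0.27 for Ccnd1, which was smaller. In Ctu1KO cells they were larger in size for Ccne1 (-1.28) and Ccnd3 (-0.99) and smaller for Cdkn1b (0.59 against 0.86), Ccne2 (-0.69 against -0.80) and Cdkn2b (0.72 against 0.77).

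**Figure D1:**
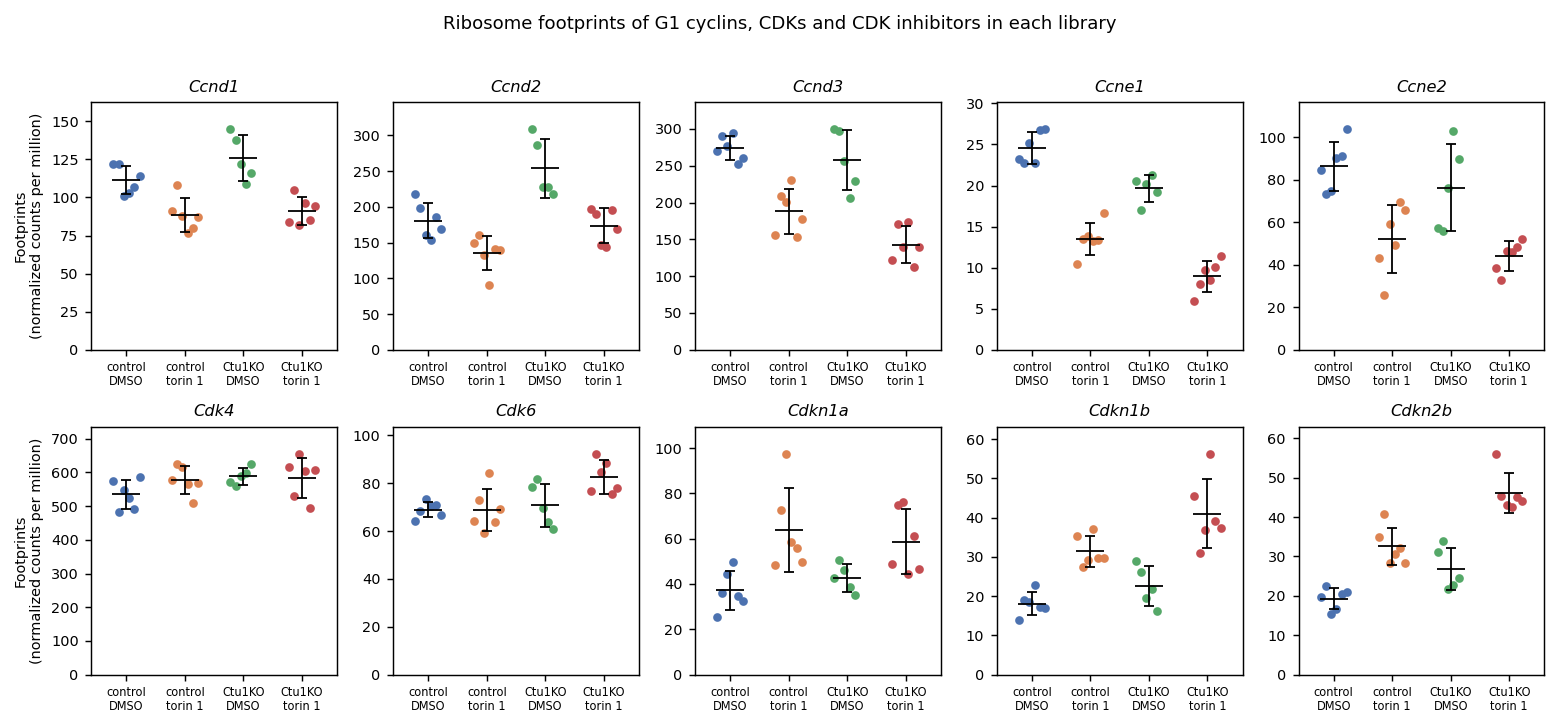
Footprints of the 10 genes in each library (normalized CPM, 1 point a library), with the mean and SD of each group as a bar; panels have their own axis, which starts at 0. Ccne1 fell from 22.7 to 26.9 CPM in control cells with DMSO to 10.4 to 16.6 CPM with torin 1, Cdkn1b rose from 13.9 to 22.9 CPM to 27.4 to 37.1 CPM, and the ranges of Cdk4 overlapped in all 4 groups.

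Among the D-type cyclins, which activate Cdk4 and Cdk6, Ccnd1 had the smallest change. Its footprints lay between 101 and 122 CPM (median 110) in control cells with DMSO and between 76.7 and 108 CPM (median 87.4) with torin 1. In Ctu1KO cells they were 145, 138, 122, 109 and 116 CPM with DMSO and 81.7 to 105 CPM (median 89.8) with torin 1. The control groups overlapped through replicate 2 with torin 1 at 108 CPM, and the Ctu1KO groups did not overlap. By edgeR, control cells changed by -0.34 ± 0.10 (log2 ± SE, adjusted p = 0.0453) and Ctu1KO cells by -0.48 ± 0.11 (adjusted p = 0.0145). All 6 same-numbered pairs of control libraries were lower with torin 1, and the adjusted p in control cells was 0.00211 with the replicate block and 0.00974 by DESeq2. Without the block the call was lost when any of 10 of the 12 libraries was left out (adjusted p 0.0528 to 0.0974), and was kept without control DMSO replicate 3 or control torin 1 replicate 2. With library totals in place of TMM it was also lost (-0.25, adjusted p = 0.134).

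Ccnd2, a second activator of Cdk4 and Cdk6, lay between 153 and 218 CPM (median 178) in control cells with DMSO and between 90 and 161 CPM (median 140) with torin 1. In Ctu1KO cells its footprints were 309, 286, 228, 228 and 218 CPM with DMSO and 144 to 197 CPM (median 180) with torin 1. All 5 Ctu1KO libraries with DMSO stood above every Ctu1KO library with torin 1, whereas the control groups overlapped. The change was -0.42 ± 0.13 (adjusted p = 0.066) in control and -0.56 ± 0.13 (adjusted p = 0.0164) in Ctu1KO cells by edgeR. With the replicate number as a block, which pairs the control samples, the control value was -0.43 (adjusted p = 0.00127 by edgeR).

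Ccnd3, the third activator of Cdk4 and Cdk6, fell in both genotypes without overlap. It lay between 252 and 295 CPM (median 274) in control cells with DMSO and between 153 and 230 CPM (median 190) with torin 1. In Ctu1KO cells it was 300, 297, 257, 206 and 229 CPM with DMSO and 112 to 173 CPM (median 140) with torin 1. The lowest DMSO library thus stood above the highest torin 1 library in each genotype. The log2 changes were -0.54 ± 0.10 (adjusted p = 0.00387) and -0.85 ± 0.14 (adjusted p = 0.0013) by edgeR, which correspond to 0.686 and 0.553 of the DMSO level.

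Ccne1, an activator of Cdk2, fell in both genotypes. It was between 22.7 and 26.9 CPM (median 24.2) in control cells with DMSO and between 10.4 and 16.6 CPM (median 13.4) with torin 1. In Ctu1KO cells it was 20.5, 17, 20.2, 21.3 and 19.2 CPM with DMSO and 5.92 to 11.4 CPM (median 9.07) with torin 1. No library of 1 treatment reached the range of the other. The change was -0.86 ± 0.12 (adjusted p = 0.000167) in control cells and -1.13 ± 0.17 (adjusted p = 0.000563) in Ctu1KO cells by edgeR, to 0.551 and 0.458 of the DMSO level.

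Ccne2, the second E-type cyclin, lay between 73.5 and 104 CPM (median 87.5) in control cells with DMSO and between 26 and 69.8 CPM (median 54.2) with torin 1. In Ctu1KO cells its footprints were 57.3, 55.7, 76.1, 103 and 89.6 CPM with DMSO and 32.7 to 52 CPM (median 46.3) with torin 1. The groups stood apart in both genotypes, although Ccne2 had the widest relative spread of the 5 cyclins with torin 1 in control cells. Control cells changed by -0.72 ± 0.19 (adjusted p = 0.0274) and Ctu1KO cells by -0.80 ± 0.17 (adjusted p = 0.0116) by edgeR. In control cells the adjusted p was 0.00158 with the replicate block. Without the block the call was lost without any of 5 libraries, control DMSO replicates 4, 5 and 6 and control torin 1 replicates 1 and 4 (adjusted p 0.0527 to 0.0698), and with library totals in place of TMM (adjusted p = 0.0527).

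The catalytic partners of the D-type cyclins were not called with torin 1. Cdk4 lay between 484 and 588 CPM in control cells with DMSO, 508 and 625 CPM with torin 1, 559 and 625 CPM in Ctu1KO cells with DMSO and 495 and 656 CPM with both. The 4 ranges overlapped, and the log2 changes with torin 1 were 0.11 ± 0.08 (adjusted p = 0.496) and -0.02 ± 0.09 (adjusted p = 0.94) by edgeR, the second of which was 0.08 with library totals. Cdk6 lay between 64.1 and 73.4 CPM, 59.4 and 84.2 CPM, 60.9 and 81.6 CPM, and 75.5 and 92.4 CPM in the same order of groups. Its changes were -0.00 ± 0.09 (adjusted p = 0.997) and 0.22 ± 0.11 (adjusted p = 0.262) by edgeR.

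The 3 inhibitors were called higher in control cells, and Cdkn1b and Cdkn2b also in Ctu1KO cells. Cdkn1a, also a target of p53, lay between 25.4 and 49.7 CPM (median 35.3) in control cells with DMSO and between 48.5 and 97.6 CPM (median 57.2) with torin 1. In Ctu1KO cells it was 42.8, 50.6, 46.4, 38.6 and 35.3 CPM with DMSO and 44.6 to 76.3 CPM (median 55) with torin 1. The groups overlapped in both genotypes, by a single pair of libraries in control cells (49.7 CPM with DMSO, 48.5 CPM with torin 1). The change was 0.78 ± 0.19 (adjusted p = 0.0189) in control and 0.45 ± 0.17 (adjusted p = 0.124) in Ctu1KO cells by edgeR.

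Cdkn1b, an inhibitor of Cdk2 complexes, had footprints that lay between 13.9 and 22.9 CPM (median 17.8) in control cells with DMSO and between 27.4 and 37.1 CPM (median 29.6) with torin 1. In Ctu1KO cells they were 28.9, 26.1, 19.5, 21.8 and 16.1 CPM with DMSO and 30.9 to 56.3 CPM (median 38.2) with torin 1. Every torin 1 library stood above every DMSO library of its genotype, with changes of 0.80 ± 0.12 (adjusted p = 0.000717) in control and 0.86 ± 0.18 (adjusted p = 0.00982) in Ctu1KO cells by edgeR.

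Cdkn2b, the inhibitor specific to Cdk4 and Cdk6, rose by a similar factor. It lay between 15.3 and 22.4 CPM (median 20.2) in control cells with DMSO and between 28.3 and 40.8 CPM (median 31.4) with torin 1. In Ctu1KO cells it was 31, 34, 21.7, 22.8 and 24.5 CPM with DMSO and 42.6 to 56.1 CPM (median 44.7) with torin 1. The groups did not overlap, and the highest value, 56.1 CPM, came from replicate 1. The change was 0.75 ± 0.12 (adjusted p = 0.00124) in control and 0.77 ± 0.14 (adjusted p = 0.00354) in Ctu1KO cells by edgeR, to 1.69 and 1.71 times the DMSO level.

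**Figure D2:**
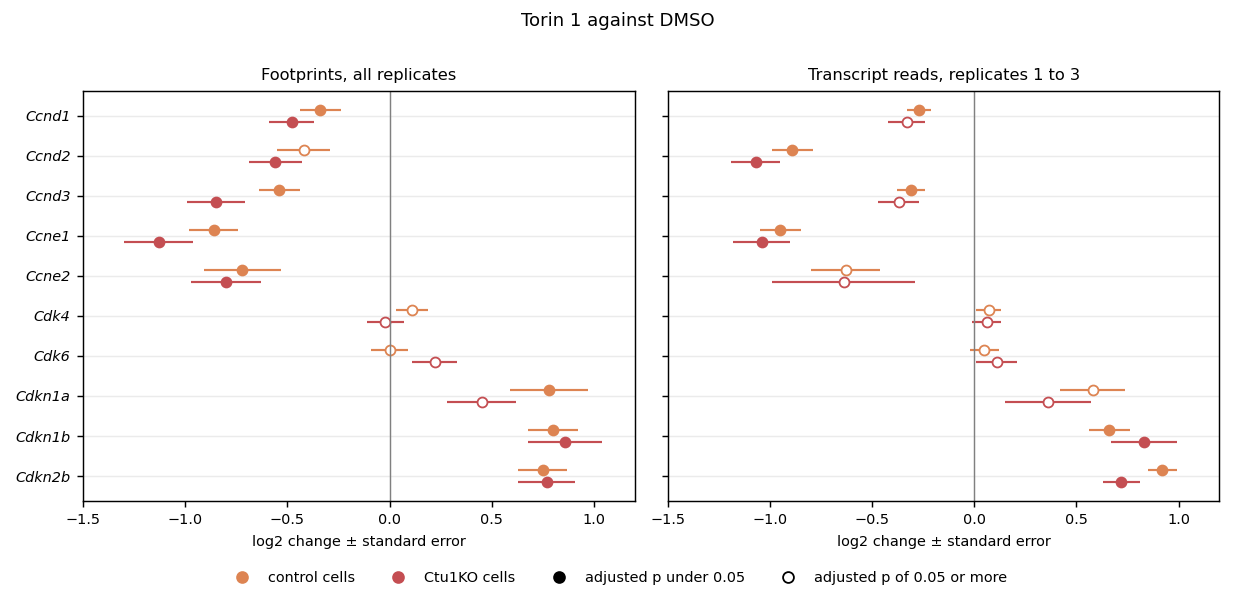
Log2 change of each gene with torin 1 against DMSO, with its standard error, in footprints (all replicates) and transcripts (replicates 1 to 3) of control and Ctu1KO cells; filled points have an adjusted p under 0.05. Cyclins lie left of 0, from -1.13 (Ccne1 footprints, Ctu1KO) to -0.27 (Ccnd1 transcripts, control), inhibitors lie right of 0 between 0.36 and 0.92, and the kinases lie between -0.02 and 0.22.

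In transcripts of replicates 1 to 3, 6 of the 10 genes were called with torin 1 in control cells, against 13.1% of the 9617 genes tested. Ccnd1, Ccnd2, Ccnd3 and Ccne1 were lower (7.4% of all genes), and Cdkn1b and Cdkn2b were higher (5.69%). In Ctu1KO cells 4 were called, against 8.25% of all genes: Ccnd2 and Ccne1 lower (4.52%), Cdkn1b and Cdkn2b higher (3.73%). The replicate numbers paired these RNA libraries, and with the number as a block 8 genes were called in each genotype, all but the kinases, while the count over all genes went from 1259 to 4206 (43.7%) in control and from 794 to 3378 (35.1%) in Ctu1KO cells. Without the block, leaving out 1 library gave 412 to 1233 calls over all genes in control cells (fewest without control DMSO replicate 2, and 864 and 1233 only without the replicates 3) and 123 to 1123 in Ctu1KO cells (fewest without Ctu1KO DMSO replicate 1, most without Ctu1KO torin 1 replicate 3).

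Groups of transcripts did not overlap for 9 of the 10 genes in control and 6 in Ctu1KO cells, where 33.1% and 30.6% of all genes were so separated with 3 libraries a group. Ccnd2 transcripts were 243, 223 and 195 CPM in control cells with DMSO and 121, 129 and 111 CPM with torin 1. In Ctu1KO cells they were 303, 279 and 260 CPM with DMSO and 138, 150 and 113 CPM with torin 1. The groups stood far apart, with changes of -0.89 ± 0.10 (adjusted p = 0.00251) and -1.07 ± 0.12 (adjusted p = 0.00633) by edgeR. Ccne1 transcripts were 25.4, 26.3 and 26.9 CPM with DMSO and 12, 14 and 15.1 CPM with torin 1 in control cells. In Ctu1KO cells they were 19.8, 21.4 and 25.2 CPM with DMSO and 9.48, 10.5 and 12.4 CPM with torin 1. Here too no library overlapped, and the changes were -0.95 ± 0.10 (adjusted p = 0.00219) and -1.04 ± 0.14 (adjusted p = 0.00857) by edgeR.

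Cdkn1b transcripts were 17.5, 15.2 and 16.8 CPM with DMSO and 25.7, 24.4 and 29.3 CPM with torin 1 in control cells, and 16.9, 14.6 and 20 CPM against 30.6, 25.6 and 35.1 CPM in Ctu1KO cells. The groups did not overlap, and the changes were 0.66 ± 0.10 (adjusted p = 0.00626) and 0.83 ± 0.16 (adjusted p = 0.0226) by edgeR. In Ctu1KO cells the call was lost without Ctu1KO DMSO replicate 1 or 2 or Ctu1KO torin 1 replicate 1 (adjusted p 0.0579 to 0.0979). Cdkn2b transcripts were 22.9, 22.5 and 21.7 CPM with DMSO and 41.6, 41.5 and 45.3 CPM with torin 1 in control cells, and 31.6, 29.8 and 33.4 CPM against 48.3, 53.5 and 54.5 CPM in Ctu1KO cells. The groups again stood apart, and the changes were 0.92 ± 0.07 (adjusted p = 0.000627) and 0.72 ± 0.09 (adjusted p = 0.00735) by edgeR.

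The other cyclins moved less in transcripts. Ccnd1 was 226, 209 and 206 CPM with DMSO and 186, 176 and 178 CPM with torin 1 in control cells (-0.27 ± 0.06, adjusted p = 0.0356), and leaving out any of the 6 libraries took it past the threshold (adjusted p 0.0602 to 0.137), while the block gave an adjusted p of 0.000375 by edgeR. Ccnd3 was 354, 363 and 402 CPM with DMSO and 292, 306 and 315 CPM with torin 1 (-0.31 ± 0.07, adjusted p = 0.0339 by edgeR), a call that held only without control torin 1 replicate 3 among the 6 libraries left out in turn (adjusted p 0.0685 to 0.111 without the others), and the block gave an adjusted p of 0.000143. Their changes in Ctu1KO cells were -0.33 ± 0.09 (adjusted p = 0.0665) and -0.37 ± 0.10 (adjusted p = 0.0577) by edgeR, and with the block the adjusted p was 0.00524 and 0.00224.

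Ccne2 and Cdkn1a varied most between replicates in RNA. Ccne2 was 61.9, 54.2 and 72.5 CPM with DMSO and 37.5, 34.3 and 51.8 CPM with torin 1 in control cells. In Ctu1KO cells it was 45.6, 38 and 71.8 CPM against 26.6, 21.9 and 51.1 CPM, replicate 3 being the highest in every group. The changes were -0.63 ± 0.17 (adjusted p = 0.0533) and -0.64 ± 0.35 (adjusted p = 0.322) by edgeR, and with the block -0.64 (adjusted p = 4.36e-06) and -0.69 (adjusted p = 0.00025). Cdkn1a was 45.1, 49.9 and 60.4 CPM with DMSO and 66.8, 72.5 and 96.4 CPM with torin 1 in control cells, and 48.7, 71.7 and 57.7 CPM against 55.1, 88.1 and 85.6 CPM in Ctu1KO cells. The control groups stood apart and the Ctu1KO groups overlapped. The changes were 0.58 ± 0.16 (adjusted p = 0.0548) and 0.36 ± 0.21 (adjusted p = 0.344) by edgeR, and with the block 0.58 (adjusted p = 3.66e-06) and 0.35 (adjusted p = 0.0101). Without control torin 1 replicate 3, Ccne2 passed the threshold in control cells (adjusted p = 0.0101), and without control DMSO replicate 3 Cdkn1a did (adjusted p = 0.0381). Without Ctu1KO torin 1 replicate 3, Ccne2 passed in Ctu1KO cells (-1.1, adjusted p = 0.0454).

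Cdk4 transcripts lay between 914 and 917 CPM with DMSO and between 967 and 975 CPM with torin 1 in control cells, so that the groups stood apart, but the change of 0.07 ± 0.06 was not called (adjusted p = 0.505 by edgeR). In Ctu1KO cells the change was 0.06 ± 0.07 (adjusted p = 0.698). Cdk6 changed by 0.05 ± 0.07 (adjusted p = 0.7) in control and 0.11 ± 0.10 (adjusted p = 0.565) in Ctu1KO cells by edgeR.

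**Figure D3:**
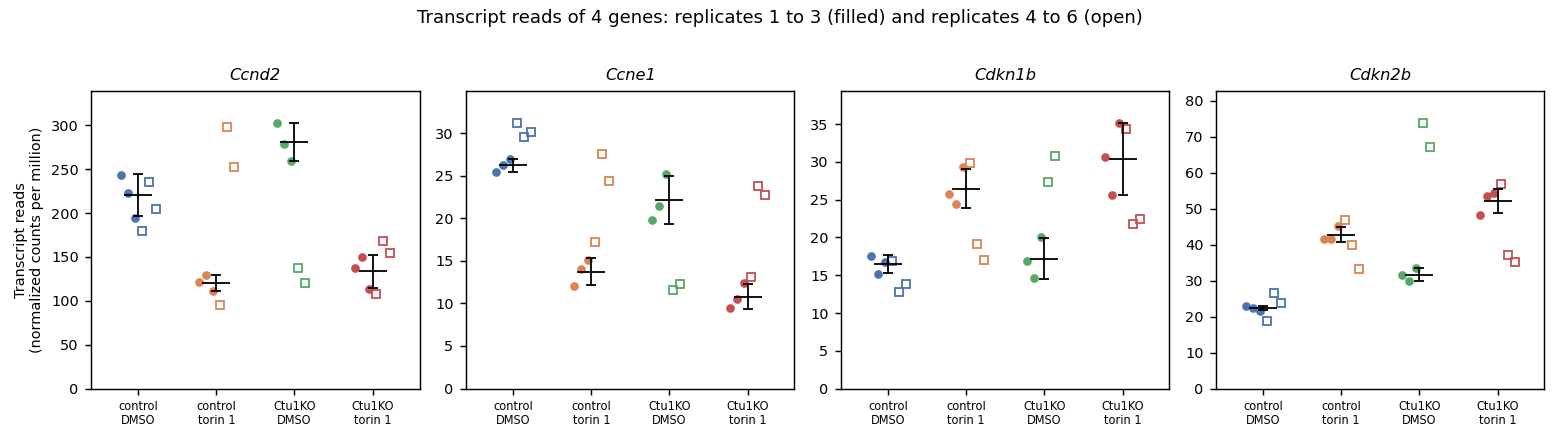
Transcript reads (normalized CPM) of Ccnd2, Ccne1, Cdkn1b and Cdkn2b in every RNA library; filled circles are replicates 1 to 3, open squares replicates 4 to 6, and bars give the mean and SD of replicates 1 to 3. The libraries labelled Ctu1KO DMSO 4 and 5 lie at 137 and 120 CPM for Ccnd2, beside 260 to 303 CPM in replicates 1 to 3, and those labelled Control Torin 5 and 6 at 298 and 253 CPM, beside 111 to 129 CPM.

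With all RNA replicates in place of 1 to 3, the torin 1 changes of all 5 cyclins and 3 inhibitors were smaller in size in both genotypes. In control cells 4 of the 10 genes were called, against 9.51% of 9630 genes, and Ccnd2 had a change of -0.35 (adjusted p = 0.415 by edgeR). In Ctu1KO cells edgeR called none of the 10, but also 0 of all 9633 genes, with 466 at an unadjusted p under 0.05. There Cdkn2b moved to 0.01, Cdkn1a to 0.02 and Ccne1 to -0.24, from 0.72, 0.36 and -1.04 in replicates 1 to 3. The 6 libraries that lay opposite to their labels also did so for single genes, as the plot of transcript reads shows. Ccne1 was at 11.6 and 12.3 CPM in the libraries labelled Ctu1KO DMSO 4 and 5 and at 23.8 and 22.7 CPM in those labelled Ctu1KO Torin 5 and 6.

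Footprints and transcripts of the same samples were compared as translational efficiency, tested as the interaction of assay and treatment in 1 edgeR model over replicates 1 to 3. None of the 10 genes was called, against 1.14% of 9848 genes in control and 1.67% of 9845 genes in Ctu1KO cells. These shares stood for 112 and 164 genes, and leaving out 1 library gave 61 to 104 (fewest without control DMSO replicate 2) and 104 to 162 (fewest without Ctu1KO DMSO replicate 1). The values ran from -0.25 ± 0.15 for Ccnd3 (adjusted p = 0.908) to 0.51 ± 0.18 for Ccnd2 (adjusted p = 0.49) in control cells. In Ctu1KO cells they ran from -0.62 ± 0.19 for Ccnd3 (adjusted p = 0.23) to 0.43 ± 0.23 for Ccnd2 (adjusted p = 0.646). With all replicates of both assays, Ccnd3 was called in Ctu1KO cells (-0.70, adjusted p = 0.0308 by edgeR), and Ccnd2 in control cells changed sign to -0.06. With library totals in place of TMM the median over all genes moved from 0.03 to 0.16 in control and from 0.03 to 0.20 in Ctu1KO cells, so efficiencies are relative to that median.

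**Figure D4:**
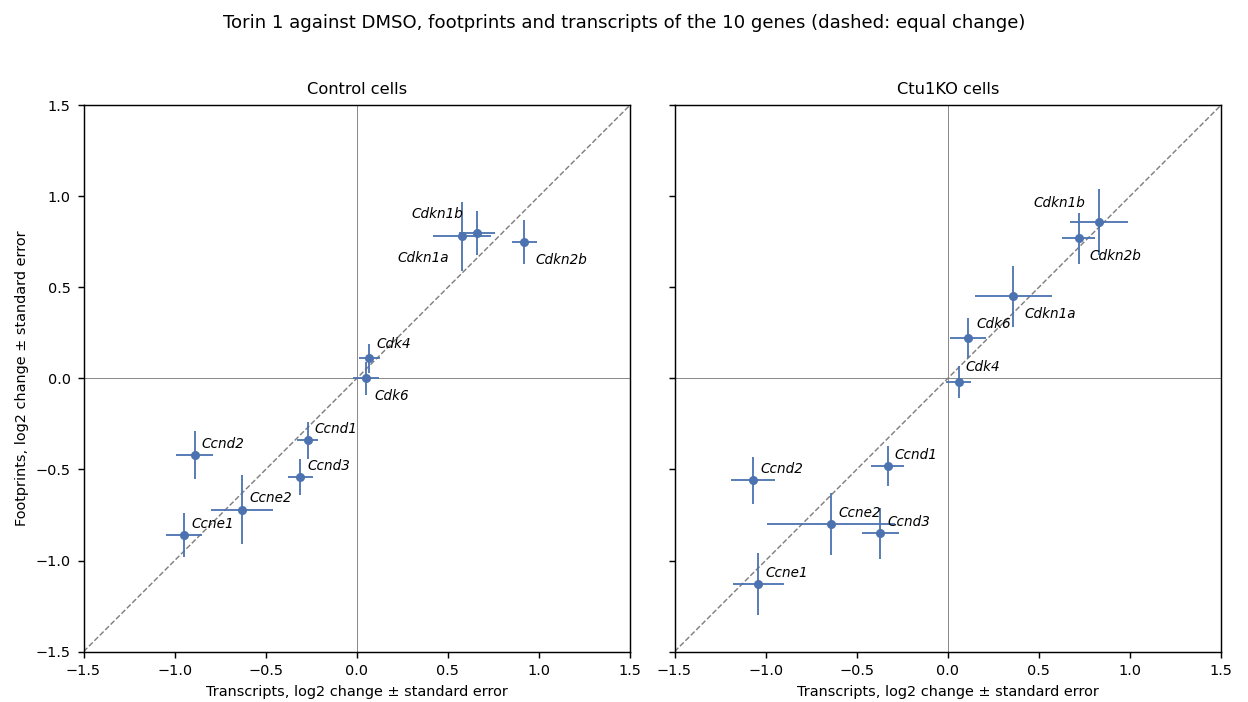
Log2 change with torin 1 in transcripts (horizontal, replicates 1 to 3) and in footprints (vertical, all replicates) of the 10 genes, with standard errors; the dashed line marks equal change, and translational efficiency in replicates 1 to 3 was called for none of the 10. Ccnd2 lies above the line in both genotypes (-0.89 and -0.42 in control, -1.07 and -0.56 in Ctu1KO cells) and Ccnd3 below it (-0.31 and -0.54, -0.37 and -0.85).

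The next question was whether the torin 1 effect differed between genotypes. In footprints none of the 10 genes had a called difference (63 of 9857 genes, 0.639%, were called, all lower in Ctu1KO cells). The difference ranged from -0.32 ± 0.26 for Cdkn1a to 0.23 ± 0.13 for Cdk6, with -0.30 ± 0.17 for Ccnd3 and -0.26 ± 0.19 for Ccne1, each with an adjusted p of 1 by edgeR. In transcripts it ranged from -0.21 ± 0.29 for Cdkn1a to 0.18 ± 0.19 for Cdkn1b. There edgeR called 0 of 9616 genes, with 140 at an unadjusted p under 0.05, and DESeq2 called 3. Without the replicate block, footprints of Cdkn1a were called with torin 1 in control cells alone, and those of Ccnd2 in Ctu1KO cells alone. These calls are therefore not shown to be a difference between the genotypes. With the block, Ccnd2 was also called in control cells (-0.43, adjusted p = 0.00127 by edgeR).

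After Ctu1 loss, 1 of the 10 genes was called in footprints with DMSO and 1 with torin 1, and 1 and 0 in transcripts. With the replicate number as a block the counts were 6 in footprints with torin 1 and 4 and 5 in transcripts with DMSO and torin 1, where the numbers pair the libraries, against 14.4%, 28% and 32.8% of all genes called under the same block. With DMSO, Ccnd2 footprints were higher in Ctu1KO than in control cells, and this was the only call among the 10, against 2.66% of 10397 genes. These 277 calls became 144 to 175 without any of control DMSO replicates 2 to 6 or Ctu1KO DMSO replicates 3 and 5, and 200 to 285 without any other library. The 5 Ctu1KO values (309, 286, 228, 228 and 218 CPM) met the control range of 153 to 218 CPM only at its top, with a change of 0.49 ± 0.12 (1.41 times, adjusted p = 0.0451 by edgeR). The call was lost when any library but control DMSO replicate 1 was left out (adjusted p 0.0525 to 0.1 in the other 10 cases, log2 change 0.41 to 0.55). Cdkn2b had a change of 0.47 ± 0.15 (adjusted p = 0.1) and Ccne1 one of -0.32 ± 0.10 (adjusted p = 0.112). Ccne1 was nevertheless the only one of the 10 whose groups did not overlap, at 17 to 21.3 CPM in Ctu1KO and 22.7 to 26.9 CPM in control cells, where 4.62% of all genes were separated.

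With torin 1 in both genotypes, Cdkn2b footprints were higher in Ctu1KO cells, at 42.6 to 56.1 CPM against 28.3 to 40.8 CPM. The groups did not overlap, as for 4.31% of all genes, and the change was 0.50 ± 0.12 (1.41 times, adjusted p = 0.0281 by edgeR), the only call among the 10 against 4.83% of 9913 genes. The call was lost without any of control torin 1 replicates 3, 4, 5 and 6 and Ctu1KO torin 1 replicates 5 and 6 (adjusted p 0.0518 to 0.0703). Ccne1 was lower, at 5.92 to 11.4 CPM against 10.4 to 16.6 CPM, without passing the threshold (-0.58 ± 0.17, adjusted p = 0.0698), and it passed without control torin 1 replicate 1 (-0.68, adjusted p = 0.0489). The replicate numbers paired the footprint libraries with torin 1, and with the number as a block 6 genes were called: Ccne1 (-0.60, adjusted p = 0.0129), Ccnd3 (-0.40, adjusted p = 0.00155), Ccnd2 (0.37, adjusted p = 0.0105), Cdkn1b (0.37, adjusted p = 0.022), Cdk6 (0.26, adjusted p = 0.044) and Cdkn2b. Over all genes that block raised the number of calls from 479 to 1425. Leaving out 1 library without the block gave 301 to 572, fewest without control torin 1 replicates 6 (301) and 3 (316). The comparison with torin 1 and the torin 1 effect in Ctu1KO cells share their Ctu1KO libraries. The summed footprints of the 4 duct markers lay between 395 and 499 CPM in Ctu1KO and between 308 and 410 CPM in control cells with torin 1. Those of the 6 mesenchymal markers lay between 2110 and 3370 CPM in Ctu1KO and between 2860 and 3630 CPM in control cells. The part of either list in this comparison was not tested.

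In transcripts, Cdkn2b was the only gene of the 10 called after Ctu1 loss with DMSO, against 5.12% of 10119 genes. It was 31.6, 29.8 and 33.4 CPM in Ctu1KO and 22.9, 22.5 and 21.7 CPM in control cells, without overlap (0.50 ± 0.07, adjusted p = 0.0185 by edgeR). Groups also stood apart for Ccnd2, Ccne1 and Cdk4, 4 of the 10 genes in all, where 31.5% of all genes did. The call was kept only without Ctu1KO DMSO replicate 3 among the 6 libraries left out in turn (adjusted p 0.051 to 0.109 without the others). Over the alternatives the Cdkn2b change ran from 0.43 to 1.06 and that of Ccne1 from -0.65 to -0.17, both largest in size with all RNA replicates. The libraries labelled Ctu1KO DMSO 4 and 5, which lay opposite to their labels, held 73.9 and 67.1 CPM of Cdkn2b. With the block, Cdkn2b, Ccnd2 (0.35, adjusted p = 0.00254), Ccne1 (-0.25, adjusted p = 0.0306) and Ccne2 (-0.32, adjusted p = 0.0319) were called, while calls over all genes rose from 518 to 2831. The 518 calls without the block depended on single libraries: without Ctu1KO DMSO replicate 3 there were 511, and without the others 0 to 131, namely 0 without control DMSO replicate 2 (1703 genes at an unadjusted p under 0.05 by edgeR), 34 and 51 without Ctu1KO DMSO replicates 1 and 2, and 79 and 131 without control DMSO replicates 1 and 3.

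With torin 1, none of the 10 transcripts was called by edgeR, where 1.31% of 9650 genes were. Groups did not overlap for Ccnd3 and Cdkn2b, 2 of the 10 genes, where 26.5% of all genes were so separated. Cdkn2b had a change of 0.30 ± 0.09 (adjusted p = 0.122) and Ccne1 one of -0.33 ± 0.14 (adjusted p = 0.234 by edgeR). DESeq2 called Cdkn2b alone. With the block, 5 were called: Cdkn2b (0.30, adjusted p = 0.00662), Ccne1 (-0.33, adjusted p = 0.0102), Ccne2 (-0.37, adjusted p = 0.0295), Cdkn1b (0.21, adjusted p = 0.0417) and Ccnd3 (-0.16, adjusted p = 0.0481), while calls over all genes rose from 126 to 3162. Without the block, leaving out Ctu1KO torin 1 replicate 3 gave 406 calls, and leaving out any of the other 5 libraries gave 1 to 20.

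**Figure D5:**
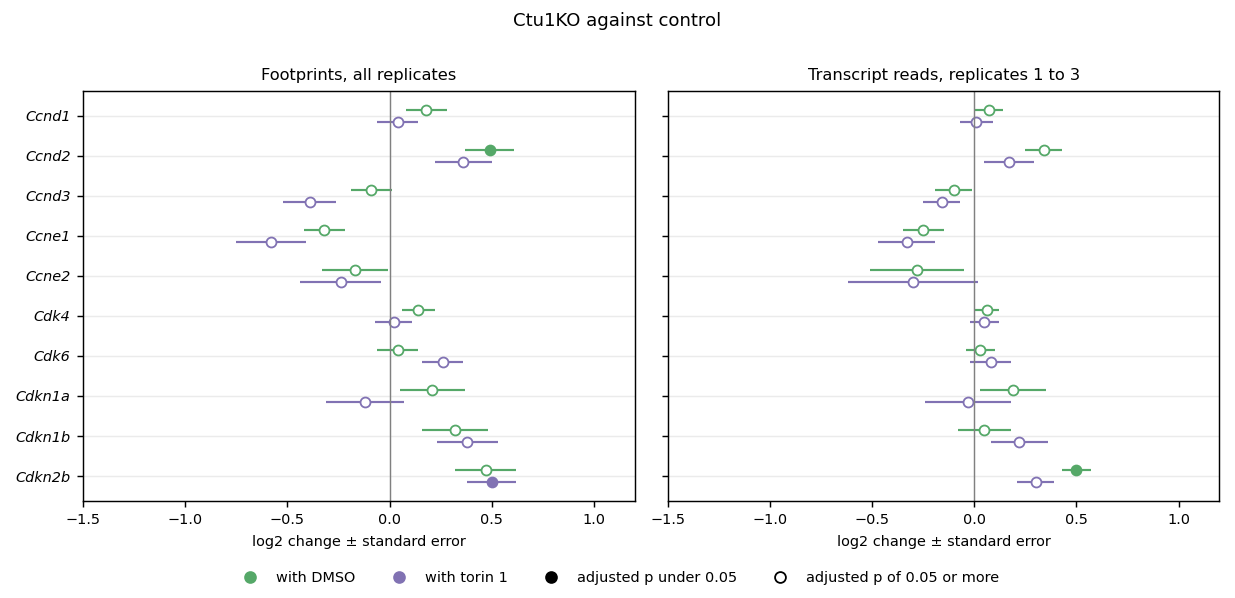
Log2 change of each gene in Ctu1KO against control cells, with its standard error, in footprints (all replicates) and transcripts (replicates 1 to 3), with DMSO or torin 1 in both genotypes; filled points have an adjusted p under 0.05. The 3 filled points are Ccnd2 footprints with DMSO (0.49), Cdkn2b footprints with torin 1 (0.50) and Cdkn2b transcripts with DMSO (0.50).

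Translational efficiency after Ctu1 loss was not called for any of the 10 genes. With DMSO it ran from -0.06 ± 0.18 for Ccne1 to 0.48 ± 0.25 for Cdkn1b (adjusted p = 1), values that became 0.33 for Ccne1 and -0.19 for Cdkn1b with all replicates of both assays. In replicates 1 to 3 edgeR called 0 of 10386 genes, with 399 at an unadjusted p under 0.05 and 21 called by DESeq2. With torin 1 it ran from -0.33 ± 0.30 for Ccne1 to 0.28 ± 0.18 for Cdk6 (adjusted p = 1 by edgeR), with 0.111% of 9901 genes called, 11 in all and 0 to 2 when any 1 library was left out (0 without control torin 1 replicate 2, where 295 genes had an unadjusted p under 0.05).

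Ctu1 thiolates the wobble uridine of tRNAs that read AAA, CAA and GAA. These codons made up 11.6% of the coding sequence of Ccne2 and 7.6% of that of Ccne1, above the median of 6.13% over 9585 listed genes with an annotated coding sequence. The other 8 genes lay below it, down to 3.08% in Ccnd3, 3.15% in Cdkn1a and 3.63% in Cdk4. AAA alone made up 4.21% of Ccne2 codons and was absent from Cdkn2b, against a median of 2.19%. Ccne2, with the highest share, changed by -0.17 ± 0.16 (adjusted p = 0.633) in footprints after Ctu1 loss with DMSO and by -0.24 ± 0.20 (adjusted p = 0.577) with torin 1 by edgeR. Ccne1 changed by -0.32 ± 0.10 (adjusted p = 0.112) with DMSO, where its groups did not overlap, and by -0.58 ± 0.17 (adjusted p = 0.0698 by edgeR, 0.0129 with the replicate block) with torin 1. No relation between codon share and change was tested. The study reported more ribosomes at AAA codons, and to a lesser degree at CAA and GAA, in Ctu1-deficient cells. Footprint counts therefore need not follow protein output here.

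Levels were compared between genes per kilobase of coding sequence, in footprints of control cells with DMSO (mean ± SD, n = 6). Cdk4 was highest at 589 ± 47 CPM per kilobase, followed by Ccnd3 at 313 ± 19, Ccnd2 at 209 ± 29 and Ccnd1 at 127 ± 11. Cdkn1a (78.0 ± 18), Ccne2 (71.3 ± 9.1) and Cdk6 (70.6 ± 3.4) did not differ beyond their spread. Cdkn2b (49.5 ± 6.9), Cdkn1b (30.5 ± 5.1) and Ccne1 (20.1 ± 1.6) were lowest. With torin 1 in Ctu1KO cells, Cdkn2b (118 ± 13) and Ccnd1 (103 ± 10) did not differ beyond their spread, and Ccne1 was at 7.3 ± 1.6. In Ctu1KO cells with DMSO, Ccnd3 (295 ± 47) and Ccnd2 (293 ± 47) did not differ beyond theirs.

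Of 39 other regulators of G1 and S entry, 35 were tested. With torin 1 in control cells, footprints of 3 were lower and 2 higher, beside 4.33% and 2.91% of all genes, with a median log2 change of 0.08 over the list and 0.01 over all genes. Those called were Cdc25a, the phosphatase that activates Cdk2 (-0.78 ± 0.12, adjusted p = 0.000683), Skp2, the ubiquitin ligase subunit that targets p27 (-0.64 ± 0.11, adjusted p = 0.0015), E2f4, named after its value was seen (-0.46 ± 0.13, adjusted p = 0.045), and the Cdk4 and Cdk6 inhibitors Cdkn2d (0.68 ± 0.20, adjusted p = 0.0472) and Cdkn2c (0.49 ± 0.12, adjusted p = 0.0245). In Ctu1KO cells Cdc25a (-0.81 ± 0.18, adjusted p = 0.0127) and Skp2 (-0.53 ± 0.11, adjusted p = 0.00829) were the 2 called, both lower, beside 4.52% of all genes. After Ctu1 loss with DMSO both were lower, beside 2.66% of all genes called, Cdc25a with -0.47 ± 0.11 (adjusted p = 0.0407) and Skp2 with -0.39 ± 0.10 (adjusted p = 0.0475), and with torin 1, where 4.83% of all genes were called, Cdkn2a was higher (0.43 ± 0.09, adjusted p = 0.0147 by edgeR).

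In transcripts with torin 1, 3 of these 35 genes were lower in control cells and 4 in Ctu1KO cells, with none higher, beside 7.4% and 4.52% of all genes that were lower. The share in control cells was near that of all genes. They included Cdc25a (-0.89 and -1.01), Fbxw7, a ubiquitin ligase subunit that targets cyclin E (-0.84 and -0.82), and Skp2 (-0.59 and -0.71). No gene of the list was called in transcripts after Ctu1 loss, or in translational efficiency in any comparison. Over all genes, the shares called were 5.12% and 1.31% in transcripts (DMSO and torin 1) and 0% to 1.67% in efficiency.

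Footprints of 13 regulators of G2 and mitosis, among them the phosphatases Cdc25b and Cdc25c, were not called with torin 1 in either genotype (median log2 change 0.16 and 0.14, beside 0.01 and 0.02 over all genes, of which 7.24% and 8% were called). After Ctu1 loss, Cdc25c (-0.56 ± 0.13, adjusted p = 0.0348) and Cdc25b (-0.47 ± 0.11, adjusted p = 0.0306) were lower with DMSO and Aurka (-0.56 ± 0.12, adjusted p = 0.0178 by edgeR) with torin 1, 2 and 1 of the 13 where 2.66% and 4.83% of all genes were called, and the list had medians of -0.28 and -0.34 beside -0.00 and 0.01 over all genes. In transcripts, Cdc25b (0.44 ± 0.09) and Cdc25c (0.37 ± 0.08) were higher with torin 1 in control cells and Cdc25b (0.42 ± 0.09) in Ctu1KO cells, 2 and 1 of the 13 beside 5.69% and 3.73% of all genes that were higher. Of 20 p53 targets other than Cdkn1a, 10 were tested with torin 1, and 1 was called in each genotype, near the 7.24% and 8% of all genes. This was Aen, which was lower (-1.31 ± 0.26, adjusted p = 0.00483 in control and -1.34 ± 0.31, adjusted p = 0.0165 in Ctu1KO cells by edgeR), and the other 9 were not called in footprints. After Ctu1 loss with DMSO, 2 of 11 tested were higher, beside 2.66% of all genes called in either direction, Gadd45a (1.71 ± 0.19, adjusted p = 0.000583) and Sesn2 (1.23 ± 0.19, adjusted p = 0.004), both also known as stress-response genes, while Cdkn1a itself had 0.21 ± 0.16 (adjusted p = 0.547 by edgeR). With torin 1, Gadd45a was the only target of 10 called (1.47 ± 0.33, adjusted p = 0.0197 by edgeR), at a mean of 97 counts, and it is named after its value was seen. In transcripts with torin 1, Aen (-1.45 ± 0.09 and -1.41 ± 0.21) and Zmat3 (-0.63 ± 0.13 and -0.80 ± 0.18) were lower in control and Ctu1KO cells, 2 of 10 targets in each beside 7.4% and 4.52% of all genes that were lower. Transcripts of Sesn2 (1.48 ± 0.12) and Gadd45a (1.16 ± 0.13) were higher after Ctu1 loss with DMSO, as was Gadd45a (1.23 ± 0.13) with torin 1, 2 of 11 and 1 of 10 targets beside 5.12% and 1.31% of all genes called in either direction.

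Across the 23 footprint libraries, Pearson's r of log2 CPM was taken between the members and each of 8856 genes as a description. The libraries share treatment groups, and r mainly reads the contrast between them. Ccne1 was most like Gm15013 (0.98), Odc1 and Rps15a (both 0.97), and Ccnd3 was most like Rrs1, Rpl13 and Rpl8 (each 0.96). Ccne2 was nearest to Eif2a (0.90), Eif3e and Ap2b1, and Ccnd1 to Tcf25 (0.86), Fam104a and Krtcap2. Ccnd2 was nearest to Sars (0.88), Htra1 and Atf4 (both 0.85). Among inhibitors, Cdkn2b was nearest to Lmo7 (0.95), Cttnbp2nl and Sox9, Cdkn1b to Cnppd1 (0.91), Mast4 and Flrt2, and Cdkn1a to Mettl3 (0.84), Pim1 and Irs2. The kinases had weaker neighbours, Gatm (0.73), Cmtm3 and Rubcn for Cdk4 and Runx2 (0.79), Actn4 and Rcc2 for Cdk6. Between members, r was -0.92 for Ccne1 and Cdkn2b, 0.84 for Cdkn1b and Cdkn2b, 0.83 for Ccnd3 and Ccne1 and 0.81 for Ccnd1 and Ccnd2, while Cdk4 had no r beyond 0.29 in size with another member.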

How the data were processed

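The deposited files held raw counts per gene, as the authors made them: 23 footprint and 23 RNA libraries. Per the study's methods and processing notes, footprints were size-selected after RNase I digestion and monosome isolation, trimmed with cutadapt 3.4, handled with UMI-tools 1.1.1, cleared of rRNA and aligned with STAR 2.5.3a; whether UMIs were collapsed is not given in the sources used here. The notes name GRCm38 (mm10) and the methods a human build. All RNA counts were even. The tables listed 10420 (DMSO) and 9936 (torin 1) entries, none with a highest footprint count under 100, and 11 symbols on several entries were left out.

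Counts with a mean of at least 10 were tested with edgeR 4.0.16 (R 4.3.3; TMM, quasi-likelihood, Benjamini-Hochberg over all genes, threshold 0.05); DESeq2 1.42.0, other scaling, filters, replicate blocks and left-out libraries were alternatives. CPM are TMM-normalized, except for Ctu1. Translational efficiency is the interaction of assay and group. At most 4 genes of a list were named, those with the largest change among the called with a mean count of at least 100. The scripts were tested on simulated data. The 10 genes and the lists were chosen with earlier results of these data known. Deviations of same-numbered libraries correlated at 0.46 to 0.66 (footprints, torin 1 in control cells), 0.34 to 0.58 (footprints, Ctu1 loss with torin 1) and 0.49 to 0.84 (RNA), so those numbers pair the samples. Promoter and coding sequences came from RefSeq and GENCODE M21.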

Additional observations from a re-analysis of the deposited data

Results flagged for a closer look

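Of 40 footprint groups of 5 or 6 libraries examined gene by gene, 1 held a library far from the others. In footprints of Ctu1KO cells with torin 1, Cdkn2b stood at 56.1 CPM in replicate 1, and the gap to the next library was 0.8 of the whole range of the group. Chance alone would flag about 1 group in 20. Without this library the difference from control cells with torin 1 kept its direction and its side of the threshold.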

How the results depend on the processing

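Over all alternatives, 1428 values of single genes were recomputed. Of these, 1270 kept direction and side of the threshold, 73 lost the call, 52 gained it and 33 changed sign. With replicates 1 to 3 alone, the number of the 10 genes called in footprints was 0 (torin 1, control), 1 (torin 1, Ctu1KO), 0 (Ctu1 loss, DMSO) and 0 (Ctu1 loss, torin 1), and calls over all genes fell to 138, 178, 2 and 1, with 2 for the difference between genotypes. Fewer samples enter these fits. With DESeq2, 2 of the 10 were called for each footprint comparison of genotypes, 2 for transcripts with DMSO and 1 with torin 1, beside 6.73%, 8.49%, 15.1% and 11.3% of all genes. A term for replicates 1 and 2 against 3 to 6 gave 2 and 2 for the footprint comparisons of genotypes, beside 7.09% and 9.22%. With all RNA replicates, 0 were called for torin 1 in Ctu1KO cells and 3 for Ctu1 loss with DMSO, beside 0% and 26.4% of all genes, and with replicates 1 and 2 alone, an alternative chosen after seeing the data, 4 for the latter, beside 15.3%. With all replicates of both assays, 1 efficiency was called for torin 1 in Ctu1KO cells (Ccnd3, -0.70). The causes were not tested.

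With the replicate number as a block, 2 (footprints, DMSO) and 6 (footprints, torin 1) of the 10 were called for Ctu1 loss, 4 and 5 in transcripts, and 8 in transcripts for torin 1 in Ctu1KO cells, beside 3.5%, 14.4%, 28%, 32.8% and 35.1% of all genes. Where the numbers did not pair the libraries (footprints, correlations -0.04 to 0.46 for torin 1 in Ctu1KO cells and -0.1 to 0.51 for Ctu1 loss with DMSO), 2 of 5 and 3 of 5 libraries matched their own number best and the block gave 983 and 364 calls over all genes. Apart from the calls given with the results and here, and Cdkn1a with torin 1 in Ctu1KO footprints (0.49) and Cdkn2b after Ctu1 loss with DMSO, the block changed no call of the 10. Leaving out 1 library gave 0 to 1 called genes for Ctu1 loss with DMSO in either assay and 0 to 2 with torin 1 in footprints. Beside these, 1.39% to 2.74% (footprints, DMSO), 0% to 5.05% (transcripts, DMSO) and 3.04% to 5.77% (footprints, torin 1) of all genes were called.

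These values changed sign. With library totals, Cdk4 was 0.08 (footprints, torin 1, Ctu1KO) and Ccnd1 -0.04 (transcripts, Ctu1 loss, torin 1). With replicates 1 to 3, footprints gave Cdk4 0.05 (torin 1, Ctu1KO), Ccnd3 0.03 (Ctu1 loss, DMSO), and Ccnd1 -0.10 and Cdk4 -0.03 (Ctu1 loss, torin 1). With all RNA replicates, transcripts gave Ccne2 0.04 and Cdk4 -0.01 (torin 1, Ctu1KO), Ccnd1 -0.06 and Ccnd2 -0.27 (Ctu1 loss, torin 1) and Cdkn1b -0.26 (difference between genotypes). RNA replicates 1 and 2 gave Cdkn1b -0.06 (Ctu1 loss, DMSO), Ccnd1 -0.03 and Cdkn1a 0.05 (Ctu1 loss, torin 1). Efficiency with all replicates was Ccnd2 -0.06 (0.51 before; torin 1, control), Ccne1 0.33 and Cdkn1b -0.19 (0.48 before; Ctu1 loss, DMSO). Leaving out 1 library moved Cdk4 from -0.05 to 0.02 (footprints, torin 1, Ctu1KO) and from -0.02 to 0.05 (Ctu1 loss, torin 1), Cdk6 from -0.02 to 0.09 (footprints) and -0.01 to 0.06 (transcripts) after Ctu1 loss with DMSO, and Cdkn1a from -0.21 to 0.04 (footprints) and -0.15 to 0.16 (transcripts) after Ctu1 loss with torin 1. It moved Cdkn1b transcripts from -0.08 to 0.15 (Ctu1 loss, DMSO), Ccnd1 transcripts from -0.03 to 0.06 (Ctu1 loss, torin 1) and Ccne1 efficiency from -0.18 to 0.01 (Ctu1 loss, DMSO).

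Over all genes, DESeq2 called 700 (footprints, Ctu1 loss, DMSO; edgeR 277), 842 (torin 1; 479), 109 (difference between genotypes; 63), and in transcripts 1963, 1609, 1530 and 1092 (edgeR 1259, 794, 518 and 126), and 234, 318, 21 and 104 efficiencies (edgeR 112, 164, 0 and 11). The block gave 2019 calls (footprints, torin 1, control; 714 without it) and 139 differences between genotypes. The replicate term gave 1218, 1368, 737, 914 and 121 in footprints. All RNA replicates gave 0, 2677 and 0 calls (torin 1 in Ctu1KO; Ctu1 loss with DMSO and torin 1), and RNA replicates 1 and 2 gave 1547 and 12 for Ctu1 loss. All replicates gave 161 and 253 efficiencies for torin 1 in control and Ctu1KO cells, and 112 for Ctu1 loss with torin 1. For that last comparison all footprint replicates gave 60 and library totals 3. With library totals the share of calls that were higher went from 40.2% to 64.8% and 43.5% to 64.7% (footprints, torin 1), 61% to 73.2% and 46.1% to 58.2% (footprints, Ctu1 loss), and 43.4% to 33.3%, 45.2% to 30.8% and 73% to 58.2% (transcripts; Ctu1 loss with torin 1 last).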
